A study of Homo sapiens with 148 samples.

Results

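The genes described here are the regulatory factor X (RFX) genes RFX1, RFX2, RFX3, RFX4, RFX5 and RFX7. They were picked by gene name from a table of RNA levels that lists 49085 names, and all 6 were found, each under a single entry. The series followed human embryonic stem cells (hESCs) of the established H9 line, WT in genotype, as they were differentiated in culture towards pancreatic β cells. RNA-seq covered hESCs, definitive endoderm (DE, day 4), primitive gut tube (PGT, day 7), pancreatic progenitors (PP, day 14), a stage labelled PH that the sources used here do not define or date, and stem cell-derived β organoids (SC-β, day 35). Each stage has 2 RNA-seq samples by the labels, in all 12 of the 148 samples of the series. The deposited values are the authors' mean TPM per gene and stage, where TPM, a length-corrected unit, divides reads by transcript length and scales each library to the same total. It gives neither the replicates separately nor their reads, so no value below has an error or a test, the depth is unknown, and differences between stages are descriptions of means. All stages derive from the same line, so every value describes H9 and its derivatives.

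RFX proteins are transcription factors that share a winged-helix DNA-binding domain and recognise the X-box, an imperfect inverted repeat in promoters. RFX1, RFX2 and RFX3 are known for switching on genes of cilia, the antenna-like or beating projections of the cell, and mouse Rfx3 is needed for normal development of insulin-producing cells. RFX4 is known for its roles in brain and neural tube development. RFX5, together with RFXAP and RFXANK, binds the promoters of MHC class II genes, where the co-activator CIITA is recruited. RFX7 lacks the dimerisation domain of RFX1 to RFX4 and is linked to a set of p53-responsive growth-restraining genes.

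The RFX genes are spread over 5 chromosomes (GRCh38, GENCODE version 44). RFX1 lies at chr19:13961530-14007039 and RFX2 at chr19:5993164-6199572, RFX3 at chr9:3218297-3526004, RFX5 at chr1:151340640-151347326 and RFX7 at chr15:56087280-56245082, all on the minus strand. RFX4 lies on the plus strand at chr12:106583004-106762803. The spans differ from 6687 bases for RFX5 to 307708 bases for RFX3. On the opposite strand, ACSBG2 overlaps RFX2 and TEX9 overlaps RFX7. The table gave ACSBG2 at most 1.25 TPM, and TEX9 between 8.28 TPM in PGT and 28.5 TPM in SC-β, and whether counting used strand is not stated, so reads in the overlap with TEX9 may not be separable from those of RFX7.

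RefSeq promoters (GRCh38.p14, 250 bases before to 50 bases after each gene start) were matched for 5 of the 6 genes, with 11 promoters between them, and none was matched for RFX2. Each was searched on both strands for an X-box, written as GTNNCC, then 2 bases of any kind, then GGNAAC, which reads GTTNCC, 2 bases and GGNNAC on the other strand. Of the 11 promoters, 1 held a match, beside 522 of all 35116 promoters (1.49%). It belongs to the second of 3 RFX4 starts in the table, at position 106601148, and 3 GENCODE transcripts start within 50 bases of it. This stretch, chr12:106600898-106601150 on the plus strand, is shown because it is the only searched promoter of these RFX genes that held this form of the X-box. The capitals mark the site.
RFX4 promoter: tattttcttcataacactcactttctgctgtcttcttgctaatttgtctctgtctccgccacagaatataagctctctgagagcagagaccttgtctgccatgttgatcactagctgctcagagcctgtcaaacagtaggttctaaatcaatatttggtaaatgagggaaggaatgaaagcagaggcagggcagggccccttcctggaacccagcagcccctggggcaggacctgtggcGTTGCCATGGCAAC

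The site reads the same on both strands, lies at chr12:106601137-106601150 and starts 11 bases before the gene start. It holds AT between its half-sites, a stricter form found in 167 of all promoters (0.476%). A match is a description of letters and not of binding. The same search found matches in 3 of 33 promoters of intraflagellar transport genes, the motor cargo system of cilia (9.09%), in 7 of 33 promoters of BBSome and transition zone genes, which sort cargo at the ciliary base (21.2%), and in 6 of 26 promoters of motile cilia genes (23.1%). Among 29 promoters of p53-linked RFX7 targets, 2 matched (6.90%), and both hold the same site of ABAT. None of 12 MHC class II, 4 MHC class I and 9 RFX partner promoters held these letters. The search asks for both half-sites in this form, so an X-box of another form would be missed. The lack of a match therefore does not show that a promoter has no X-box. The windows below, 30 bases with the 14-base site in capitals and 8 bases on either side, place the RFX4 site beside sites of cilia genes and of ABAT. They were chosen after their values were seen, to show 1 or 2 genes per list. The cilia genes shown and ABAT were all at least 2-fold higher in SC-β than in hESCs. Of the 14 cilia genes with a match that were considered in SC-β, 9 were, beside 42.4% of all names considered. B9D1 (29.5 TPM in hESCs, 17.8 in SC-β) and TMEM107 (16.2 and 12.0) also hold a match and are not shown.
RFX4 (chr12:106601129-106601158, plus strand): cctgtggcGTTGCCATGGCAACccactgac
IFT57 (chr3:108222433-108222462, minus strand): ggagtctaGTTTCCCTGGTGACggattgtc
AHI1 (chr6:135497787-135497816, minus strand): acgcatcgGTCGCCATGGGAACggcggcgt
DNALI1 (chr1:37556915-37556944, plus strand): agggggcgGTTTCCATGGTGACggcaaaca
CFAP45 (chr1:159900163-159900192, minus strand): ggctagtgGTTGCCAAGGTAACgcgtcaac
ABAT (chr16:8712782-8712811, plus strand): tcccattgGTTGCCTCGGCAACggcgtaat

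The stage labels were checked against their defining markers. The 4 pluripotency markers summed to 2484 TPM in hESCs and 22.5 TPM in PH. The summed level of the 4 definitive endoderm markers was highest in DE (3 of the 4, FOXA2 being highest in PGT). The 12 endocrine markers summed to 31.4 TPM in hESCs and 4267 TPM in SC-β. Most of the SC-β sum was GCG, the glucagon gene, at 2793 TPM, while INS, the insulin gene, stood at 298 TPM. The 4 pancreatic progenitor markers summed to 34.2 TPM in PGT, 32.4 in PP, 27.4 in SC-β and 5.29 in PH. As deposited, their sum was thus highest in PGT and not in PP. All 4 reached 1 TPM in PP and in SC-β, while 2 of 4 did in PGT and only 1 of 4 in PH. Mesenchymal markers reached 1029 TPM in PH and 1968 TPM in SC-β, beside at most 191 TPM in the other stages. In such bulk samples, fewer cells of a type and less RNA per cell cannot be told apart.

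The summed RFX RNA was lowest in hESCs, and whether SC-β or PH was highest depended on the scaling. The 6 genes summed to 53.7 TPM in hESCs, 80.6 in DE, 79.7 in PGT, then 103.3 in PP, 114.1 in PH and 150.9 in SC-β, 2.81 times the hESC sum. After each stage was rescaled by its median ratio to the others, the sum was 112.2 TPM in PH and 105.1 TPM in SC-β, 1.96 times that of hESCs, and without the 100 most abundant names PH was also the highest. As deposited, RFX1, RFX2, RFX3 and RFX7 had their highest level in SC-β, RFX4 in PH and RFX5 in PP, while under both other scalings RFX1 was highest in PH. RFX5 was the most abundant of the 6 in every stage, while RFX4 moved from the lowest in hESCs, DE and PGT to the second highest in PH.

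**Figure D1:**
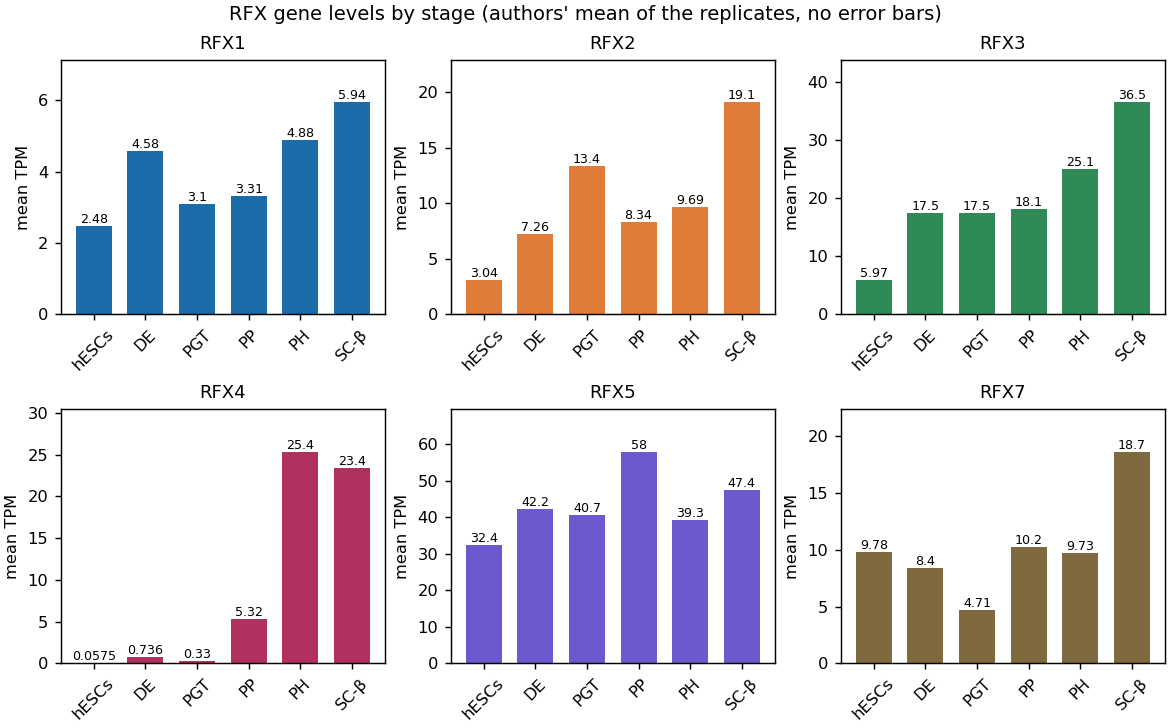
Mean TPM of each RFX gene (vertical axis, linear from 0 and scaled separately per gene) in the 6 stages (horizontal axis), with 1 bar for the authors' mean of a stage and no error bar, since replicate values are not in the table. RFX1, RFX2, RFX3 and RFX7 are highest in SC-β on this scale (RFX1 in PH after rescaling), RFX4 is below 1 TPM until PP, and RFX5 stays between 32.4 and 58.0 TPM.

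RFX3, the ciliary factor also known from islet development, had a level in SC-β 6.11 times that in hESCs, close to the 6.26 times of RFX2. Its level was 5.97 TPM in hESCs, 17.5 in DE, 17.5 in PGT, then 18.1 in PP, 25.1 in PH and 36.5 in SC-β. It thus stood higher in every later stage than in hESCs, with a near-flat course from DE to PP. Relative to hESCs, the log2 ratio of TPM + 1 was 1.40 in DE, 1.40 in PGT, then 1.46 in PP, 1.90 in PH and 2.43 in SC-β. The value in SC-β was reached or passed by 1574 of 25644 names (6.14%). From PH to SC-β the log2 ratio of RFX3 was 0.52 as deposited and 0.04 after rescaling. A transcript listed as RFX3-AS1 stayed at or below 2.94 TPM.

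RFX2, a factor of motile cilia genes, went from 3.04 TPM in hESCs to 7.26 in DE and 13.4 in PGT, then stood at 8.34 in PP, 9.69 in PH and 19.1 in SC-β. It stood higher in PGT than in DE or PP, and highest in SC-β. Its log2 ratio to hESCs was 1.03 in DE, 1.83 in PGT, then 1.21 in PP, 1.40 in PH and 2.31 in SC-β. From DE to PGT its log2 ratio was 0.80, while RFX3 had 0.00 over the same step.

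RFX1, the founding member of the family, was the least abundant RFX gene in PP, PH and SC-β. Its level was 2.48 TPM in hESCs, 4.58 in DE, 3.10 in PGT, then 3.31 in PP, 4.88 in PH and 5.94 in SC-β. The SC-β level was 2.39 times that of hESCs, and with the pseudocount of 1 TPM the log2 ratio was 0.99, against 0.23 in PGT. This lies at the 2-fold threshold, and it was 1.22 with a pseudocount of 0.1 TPM and 0.56 after rescaling. In PH the ratio was 0.76 as deposited and 1.16 without the 100 most abundant names. From PH to SC-β the ratio was 0.24 as deposited and -0.17 after rescaling.

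RFX4 showed the steepest change. It was listed at 0.0575 TPM in hESCs, 0.736 in DE and 0.330 in PGT, and at 5.32 in PP, 25.4 in PH and 23.4 in SC-β. The stages thus fall into a low trio below 1 TPM and a later trio above 5 TPM. The log2 ratio to hESCs was 2.58 in PP, 4.64 in PH and 4.53 in SC-β. Since the hESC level lies far below the pseudocount of 1 TPM, these values depend on it, and with a pseudocount of 0.1 TPM the ratio was 5.10 in PP, 7.34 in PH and 7.22 in SC-β. In PH, 138 of 21679 names (0.637%) had a ratio at or above that of RFX4, and in SC-β 170 of 25644 names did (0.663%).

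RFX4 is known from neural development, so markers of neural cells were set beside it. Their sum, like RFX4, was higher in PH than in PGT but was not low in hESCs. The 13 neural progenitor markers summed to 278 TPM in hESCs, 131 in DE, 35.7 in PGT, then 174 in PP, 700.6 in PH and 307 in SC-β. Of these 13, 5 reached 1 TPM in hESCs, 3 in PGT, 10 in PP, 12 in PH and 11 in SC-β, and SOX1 and EMX2, at 0 in hESCs, were above 0 in PP, PH and SC-β. SOX2, which hESCs also express, had log2 ratios to hESCs of -0.95 in PP, -0.29 in PH and -1.37 in SC-β. NES had -1.24 in PP and 0.16 in PH, and FABP7 -0.52 in PP and 1.33 in PH, with -0.12 for either in SC-β. From PH to SC-β the neural sum was lower, while RFX4 had a log2 ratio of -0.11. The 12 endocrine markers summed to 323 TPM in PP, 232 in PH and 4267 in SC-β. Mesenchymal markers were also higher in these stages, with 191 TPM in PP, 1029 in PH and 1968 in SC-β. The part of neural or mesenchymal cells in the RFX4 level was not tested.

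**Figure D2:**
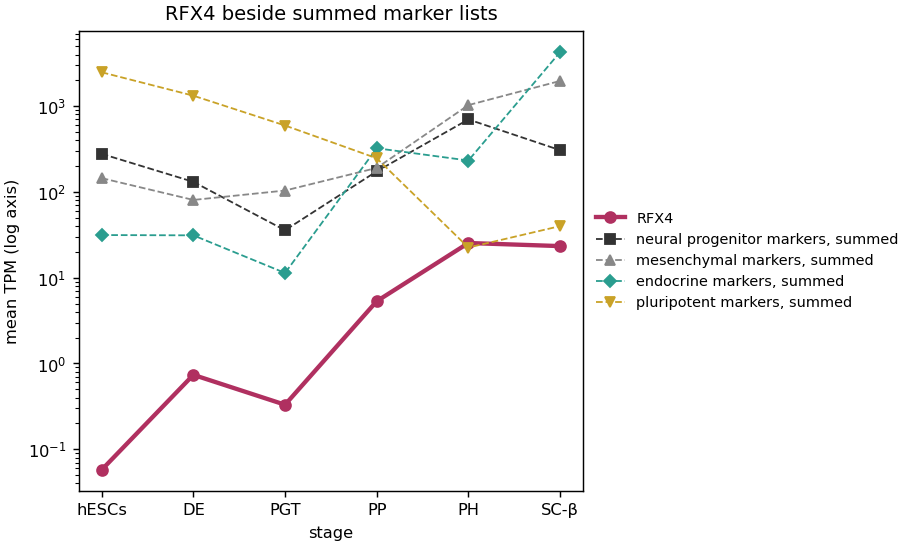
Mean TPM (vertical axis, log scale) of RFX4 and the summed TPM of 4 marker lists in the 6 stages (horizontal axis), with each point the authors' stage mean or a sum of such means. Lines join columns only to guide the eye, as the time of PH is not given. RFX4 and the neural progenitor sum both peak in PH, at 25.4 and 700.6 TPM, while the neural sum is 278 TPM in hESCs, where RFX4 is lowest, and the endocrine sum peaks in SC-β at 4267 TPM.

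RFX5, the MHC class II regulator, was the steadiest gene, with 1.79 times between its lowest and highest stage. Its level was 32.4 TPM in hESCs, 42.2 in DE, 40.7 in PGT, then 58.0 in PP, 39.3 in PH and 47.4 in SC-β. The highest log2 ratio to hESCs was 0.82, in PP, and no stage reached 2-fold. In DE and PGT its direction depended on the scaling, with log2 ratios of 0.37 and 0.32 as deposited and -0.10 and -0.01 after rescaling.

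As deposited, RFX7 was the only RFX gene with its lowest level in a stage other than hESCs. It stood at 9.78 TPM in hESCs, 8.40 in DE, 4.71 in PGT, then 10.2 in PP, 9.73 in PH and 18.7 in SC-β. Its log2 ratio to hESCs was -0.92 in PGT, short of 2-fold, and -1.19 after rescaling. From PGT to PP the ratio was 0.97, and 1.02 after rescaling. In SC-β it was 0.87 as deposited and 0.38 after rescaling.

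Counts of names that changed at least 2-fold were taken among names at 1 TPM or more in at least 1 of both stages, with a pseudocount of 1 TPM. Against hESCs in DE, RFX2 and RFX3 were at least 2-fold higher among 5 RFX genes considered, RFX4 being below 1 TPM in both, beside 28.2% of all names higher and 5.55% lower. In PGT the same 2 of 5 were higher, beside 23.4% higher and 10.0% lower of all names. In PP, RFX2, RFX3 and RFX4 were higher, 3 of 6, beside 18.9% higher and 9.63% lower. In PH the same 3 of 6 were higher, beside 27.3% higher and 18.9% lower. In SC-β they were again 3 of 6, beside 42.4% higher and 7.08% lower. RFX4, below 1 TPM in hESCs, entered these 3 counts only through the later stage and could not have been counted as lower. The other 5 genes were at 1 TPM or more in hESCs, and of them RFX2 and RFX3 were higher each time. Among all names at 1 TPM or more in hESCs, 12.5% were higher in PP, 16.4% in PH and 26.6% in SC-β. None of the 6 was at least 2-fold lower in any of these comparisons. The 5 comparisons share hESCs as reference and are not independent.

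Between later stages fewer RFX genes differed. From DE to PGT, 0 of 5 reached 2-fold in either direction, beside 4.94% of all names higher and 10.6% lower. From PGT to PP, RFX4 did, 1 of 6, beside 6.30% higher and 7.46% lower, but RFX4 entered this count only through PP. From PP to PH, RFX4 did again, beside 11.5% higher and 12.8% lower. From PP to SC-β, RFX2 and RFX4 did, with log2 ratios of 1.10 and 1.95, beside 20.7% higher and 1.84% lower. Between PH and SC-β none did, beside 28.1% higher and 4.60% lower, and the closest were RFX2 at 0.91 and RFX7 at 0.87.

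The scaling of the stages bears on these counts. For each of the 13938 names at 1 TPM or more in every stage, log2 TPM was set against its mean over the stages. The median of these differences in a stage, less that in hESCs, was 0.48 in DE, 0.34 in PGT and 0.25 in PP. It was 0.03 in PH and 0.52 in SC-β. These are the shifts that the rescaling removed. After each stage was rescaled by its median ratio, the share of all names higher and lower than in hESCs was 15.0% and 10.8% in DE, 15.5% and 14.5% in PGT, 13.9% and 13.0% in PP and 27.8% and 13.4% in SC-β. From PP to PH the split became 14.3% and 9.14%, from PP to SC-β 12.8% and 2.90%, and from PH to SC-β 14.8% and 8.09%. After rescaling no RFX gene reached 2-fold in DE, where RFX3 had 0.95 and RFX2 had 0.62. RFX2 had 0.99 in PP. In SC-β, RFX2 kept 1.82, RFX3 1.92 and RFX4 4.03, whereas RFX5 had 0.03.

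**Figure D3:**
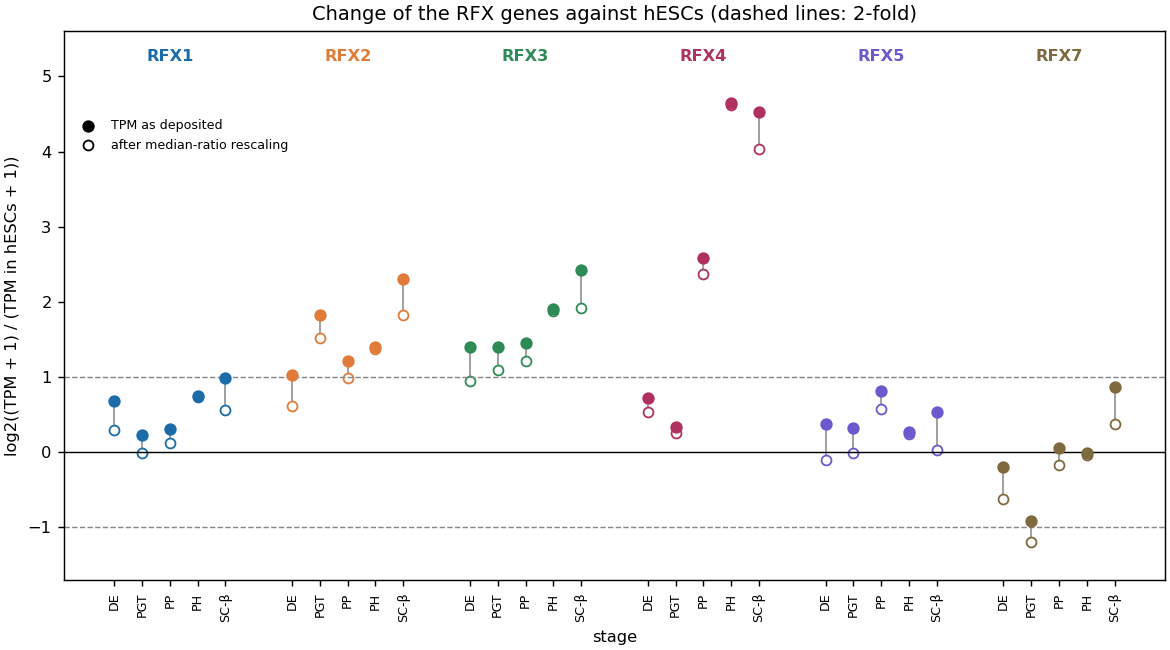
Log2 ratio of TPM + 1 to hESCs (vertical axis) for each RFX gene in the 5 other stages (horizontal axis), from the deposited TPM (filled) and after median-ratio rescaling (open), with dashed lines at 2-fold. RFX4 in DE and PGT is below 1 TPM in both stages and was left out of the counts. On the deposited scale RFX2 and RFX3 lie above 2-fold in all 5 stages and RFX4 in PP, PH and SC-β, and RFX5 never reaches it.

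The make-up of RFX RNA, which does not depend on how a stage is scaled, moved from RFX5 and RFX7 towards RFX2, RFX3 and RFX4. RFX5 made up 60.3% of the summed TPM of the 6 genes in hESCs, 52.3% in DE, 51.1% in PGT, then 56.1% in PP, 34.5% in PH and 31.4% in SC-β. RFX3 made up 11.1% in hESCs and 24.2% in SC-β. RFX4 went from 0.107% in hESCs to 5.15% in PP, 22.2% in PH and 15.5% in SC-β. RFX2 made up 5.67% in hESCs, 16.8% in PGT, its highest share, and 12.6% in SC-β. RFX7 made up 18.2% in hESCs, 5.91% in PGT, its lowest share, and 12.4% in SC-β. RFX1 stayed between 3.21% and 5.68%.

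**Figure D4:**
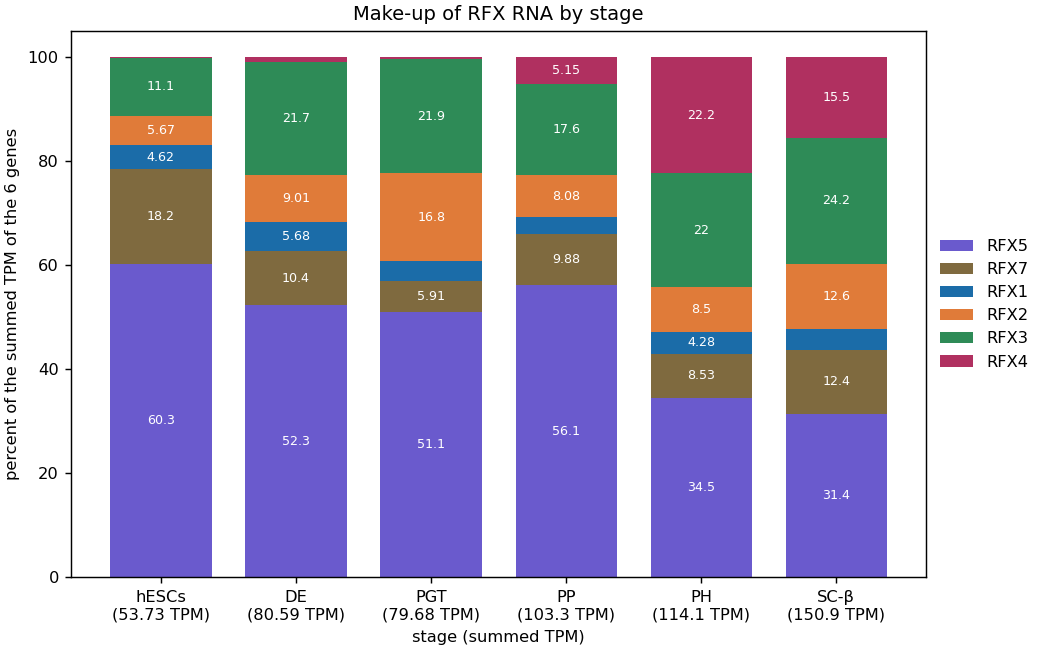
Share of the summed TPM of the 6 RFX genes (vertical axis, percent) taken by each gene in the 6 stages (horizontal axis, with the summed TPM), from the authors' stage means. RFX5 takes 60.3% in hESCs and 31.4% in SC-β, and RFX4 takes 22.2% in PH.

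Over the 6 stage means, RFX2 and RFX3 had the most similar courses, with Pearson r = 0.916 on log2(TPM + 1), followed by RFX1 and RFX3 with r = 0.878. The least similar were RFX2 and RFX7, with r = 0.195. After rescaling RFX2 and RFX3 stayed the most similar (r = 0.891), but RFX1 and RFX4 came next (r = 0.885). RFX1 and RFX3 then had r = 0.802, and RFX2 and RFX7 r = 0.005. With 6 points that share a line and a scaling these are descriptions. Names at 5 TPM or more in some stage with at least 2-fold range were compared, after a filter on the form of the name. It dropped clone, LOC, LINC, MIR, small RNA and antisense names. It also dropped any name ending in P and digits, which removes some coding genes. Among the 9094 names left, the course of RFX1 was most like that of SPEN, a transcriptional co-repressor (r = 0.994). Then came POMT2, an O-mannosyltransferase, and KMT2A, a histone H3K4 methyltransferase. RFX2 was most like UBL3, a ubiquitin-like protein (r = 0.996), MGAT4A, a glycosyltransferase, and N4BP2L2. RFX3 was most like TM2D1 (r = 0.996), GOLGA6L9 and NYNRIN, of which GOLGA6L9 belongs to a family of near-identical copies and is uncertain.

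RFX4 was most like C2CD2L, a lipid transfer protein known from insulin secretion (r = 0.999), SLIT1, an axon guidance ligand, and TMEM132C. With a pseudocount of 0.1 TPM none of them stayed among the 3 most similar. C2CD2L, which ran from 1.33 TPM in hESCs to 5.31 in PH, then had r = 0.983. SLIT1 stood at 0.192 TPM in hESCs, 12.0 in PP, 65.1 in PH and 44.7 in SC-β, the same order of stages as RFX4. RFX5 was most like PDE11A, a cyclic nucleotide phosphodiesterase (r = 0.974), EPM2A, the glycogen phosphatase laforin, and EYA1, a transcriptional cofactor. RFX7 was most like C1QL1 (r = 0.985), ARFGEF3 and HSPA4L, a heat shock protein. Likeness over 6 points was common, with 327 of the names compared above r = 0.95 for RFX3, 133 for RFX4 and 13 each for RFX5 and RFX7.

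The partners of RFX5 were present at unequal levels. RFXANK, an obligate subunit of the RFX complex, stood at 34.6 TPM in hESCs, 53.5 in PGT, 56.5 in PP, 37.9 in PH and 39.1 in SC-β, and so, like RFX5, was highest in PP. RFXAP, the other subunit, had 2.93 TPM in hESCs and 9.55 TPM in SC-β, a log2 ratio of 1.42. CIITA, the co-activator without which MHC class II genes are silent in most cells, was at most 1.56 TPM, in PH. Of the NF-Y subunits that bind beside the RFX complex, NFYC had a log2 ratio of 1.01 and NFYA of 0.99 in SC-β, and NFYB of -0.13. RFX8, a family member outside the 6, was at most 2.28 TPM, in PH. Of 7 partners considered in SC-β, 2 were at least 2-fold higher and 0 lower, with a median log2 ratio of 0.92, beside 42.4% of all names higher and a median of 0.83. After rescaling 0 were higher.

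MHC class II genes, the classical targets of RFX5, had no common direction in SC-β and a negative median in PH. In SC-β, 2 of 8 considered were at least 2-fold higher and 1 lower, beside 42.4% and 7.08% of all names. The median log2 ratio was 0.08, beside 0.83. Both higher genes, HLA-DRB5 and HLA-DPA1, were below 1 TPM in hESCs and entered only through SC-β. Among the 6 at 1 TPM or more in hESCs, 0 were higher and 1 lower, with a median of -0.21. Of all such names 26.6% were higher, with a median of 0.35. In PH 0 of 6 were higher and 4 lower, beside 27.3% and 18.9% of all names, with a median of -1.29, beside 0.28. All 6 were at 1 TPM or more in hESCs. Among all such names 16.4% were higher and 4098 of 16784 lower, with a median of -0.16. In PP 4 of 9 were higher and 0 lower, beside 18.9% and 9.63% of all names, but 6 of these genes were already at 1 TPM in hESCs, and 1 of those 6 was higher. HLA-DRA, the α chain gene of HLA-DR, was listed at 0.926 TPM in hESCs and at 0 in PP and PH. CD74, the invariant chain that guides class II molecules, stood at 13.5 TPM in hESCs, 28.6 in PP, 4.88 in PH and 11.1 in SC-β, a log2 ratio to hESCs of -1.31 in PH. HLA-DMA, a peptide-loading factor, had a log2 ratio of -1.82 in SC-β. HLA-DRB1 and HLA-DRB5 are near-identical copies and uncertain, with -2.00 for HLA-DRB1 in PH and 1.54 for HLA-DRB5 in SC-β. The leukocyte marker PTPRC was near 0 in every stage, and the 10 immune markers summed to at most 4.40 TPM outside SC-β and to 72.9 TPM there, mostly LYZ.

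Of MHC class I genes, which RFX5 also helps to switch on, 2 of 5 considered were at least 2-fold higher in SC-β, beside 42.4% of all names. All 5 were at 1 TPM or more in hESCs, and among all such names 26.6% were higher. In PH 3 of 5 were lower, beside 18.9% of all names and 4098 of the 16784 names at 1 TPM or more in hESCs. In DE 3 of 5 were higher, beside 28.2%, and in PGT 2 of 5, beside 23.4%. B2M, the shared light chain, had 53.9 TPM in hESCs, 17.6 in PH and 184 in SC-β, with log2 ratios of -1.56 and 1.76. HLA-E had a log2 ratio of 1.10 in SC-β, and HLA-B, a gene with closely related copies and so uncertain, had 1.51 in DE, 3.43 in PGT, where it reached 577 TPM, and -1.14 in PH. The medians over the list were 1.27 in DE, 0.83 in PGT, -1.03 in PH and 0.09 in SC-β, or -0.28 in SC-β after rescaling.

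Cilia genes are known targets of RFX1 to RFX3. Of 30 intraflagellar transport genes, 18 were at least 2-fold higher in SC-β and 0 lower, with a median log2 ratio of 1.18, beside 42.4% higher and a median of 0.83 for all names. After rescaling, 10 of the 30 were higher (33.3%), beside 27.8% of all names, and the median was 0.68. All 30 were at 1 TPM or more in hESCs, while the shares of all names take in names that were not. Among all names at 1 TPM or more in hESCs, 26.6% were higher in SC-β, or 14.04% after rescaling, with a deposited median of 0.35. KIFAP3, a subunit of the kinesin that moves the transport trains, stood at 2.87 TPM in hESCs, 43.8 in PH and 32.2 in SC-β. IFT88, a core train protein, stood at 4.74 TPM in hESCs, 13.6 in PH and 36.5 in SC-β, and IFT140 had a log2 ratio of 2.08 in SC-β. The lowest ratio in SC-β was that of WDR34, a dynein-2 chain, at -0.04. IFT57, whose site is shown above, stood at 23.1 TPM in hESCs and 92.1 in SC-β. In PH 9 of 30 were higher, beside 27.3% of all names, and in DE 16 of 30, beside 28.2%. Among names at 1 TPM or more in hESCs, the shares were 16.4% in PH and 20.3% in DE.

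Of 29 BBSome and transition zone genes, 16 were at least 2-fold higher in SC-β (55.2%) and 1 lower, beside 42.4% and 7.08% of all names, with a median of 1.28, beside 0.83. After rescaling 11 were higher, beside 27.8% of all names, and the median was 0.78. Among the 28 at 1 TPM or more in hESCs, 15 were higher, or 10 after rescaling, beside 26.6% and 14.04% of all such names. BBS5, a BBSome subunit, stood at 0.337 TPM in hESCs, 4.67 in PH and 11.5 in SC-β, and TCTN1, of the transition zone, had a log2 ratio of 2.41 in SC-β. BBS9, another BBSome subunit, went the other way, from 82.8 TPM in hESCs to 11.9 in PH and 24.6 in SC-β. B9D1 and TMEM107, both of the transition zone, had log2 ratios of -1.59 and -1.09 in PH, and both hold an X-box match. AHI1, with its site above, stood at 10.6 TPM in hESCs and 37.8 in SC-β.

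Of the 31 motile cilia genes listed, 10 were at 1 TPM or more in hESCs, and the others could enter a count only through a later stage, where they are then higher. Among these 10, in a comparison added after seeing the data, 8 were at least 2-fold higher in SC-β and 0 lower, with a median log2 ratio of 1.98, beside 26.6% and a median of 0.35 for all names at 1 TPM or more in hESCs. After rescaling 6 of the 10 were higher, beside 14.04%. In DE 7 of the 10 were higher, beside 20.3%, in PP 5, beside 12.5%, and in PH 2, beside 16.4%. By the rule used for the other lists, which takes in genes low in hESCs, 24 of 27 were higher in SC-β, beside 42.4% of all names, 17 of 24 in DE, beside 28.2%, 11 of 21 in PP, beside 18.9%, and 5 of 17 in PH, beside 27.3%. FOXJ1, the regulator that acts with RFX2 and RFX3 on these genes, stood at 1.98 TPM in hESCs, 26.6 in DE, 13.8 in PGT, then 10.3 in PP, 4.99 in PH and 13.5 in SC-β. Its highest stage was DE, which was the highest stage of none of the 6 RFX genes. SPEF2, of the motile axoneme, had 0.232 TPM in hESCs and 17.8 in SC-β, CFAP43 0.215 and 15.9, and TPPP3, a tubulin-binding protein, 0.130 and 15.6, with 27.7 in PH. DNAAF2, a dynein assembly factor, had a log2 ratio of -0.45 in SC-β. DNALI1, with its site above, stood at 6.34 TPM in hESCs and 29.4 in SC-β, and CFAP45 at 0.501 and 3.14.

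Across the 3 cilia lists, genes with and without an X-box match had close medians in SC-β, and those with a match had the lower median in PH. In SC-β, 9 of 14 considered genes with a match were at least 2-fold higher (median log2 ratio 1.36). Of those with a promoter but no match, 39 of 59 were (median 1.34), and of all names 42.4%. In PH, 1 of 12 with a match was higher (median 0.21), beside 19 of 53 without (median 0.81) and 27.3% of all names. Motile cilia genes below 1 TPM in hESCs entered these counts only through the later stage, such as CFAP45 (0.501 TPM in hESCs, 3.14 in SC-β). These are counts of letters in 300-base windows, and sites elsewhere or of another form were not searched.

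Of 18 genes linked to p53 and RFX7, 12 were at least 2-fold higher in SC-β and 0 lower, beside 42.4% and 7.08% of all names, with a median log2 ratio of 1.31, beside 0.83. After rescaling 8 of 18 were higher, beside 27.8% of all names, and the median was 0.80. Among the 17 at 1 TPM or more in hESCs, 11 were higher, or 7 after rescaling, beside 26.6% and 14.04% of all such names. In PGT, where RFX7 had its lowest level, 9 of 17 were higher and 2 lower, beside 23.4% and 10.0% of all names, with a median of 1.15, beside 0.41. PDCD4, a translation inhibitor, stood at 10.7 TPM in hESCs, 51.9 in PGT and 79.1 in SC-β. KLF9, a transcription factor, stood at 0.593 TPM in hESCs, 0.104 in PGT and 8.62 in SC-β. ABAT, which breaks down the transmitter GABA and whose site is shown above, stood at 2.42 TPM in hESCs, 74.1 in PH and 20.5 in SC-β. CCND1, the cyclin D1 gene, had a log2 ratio of -0.58 in SC-β and 0.03 in PH.

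**Figure D5:**
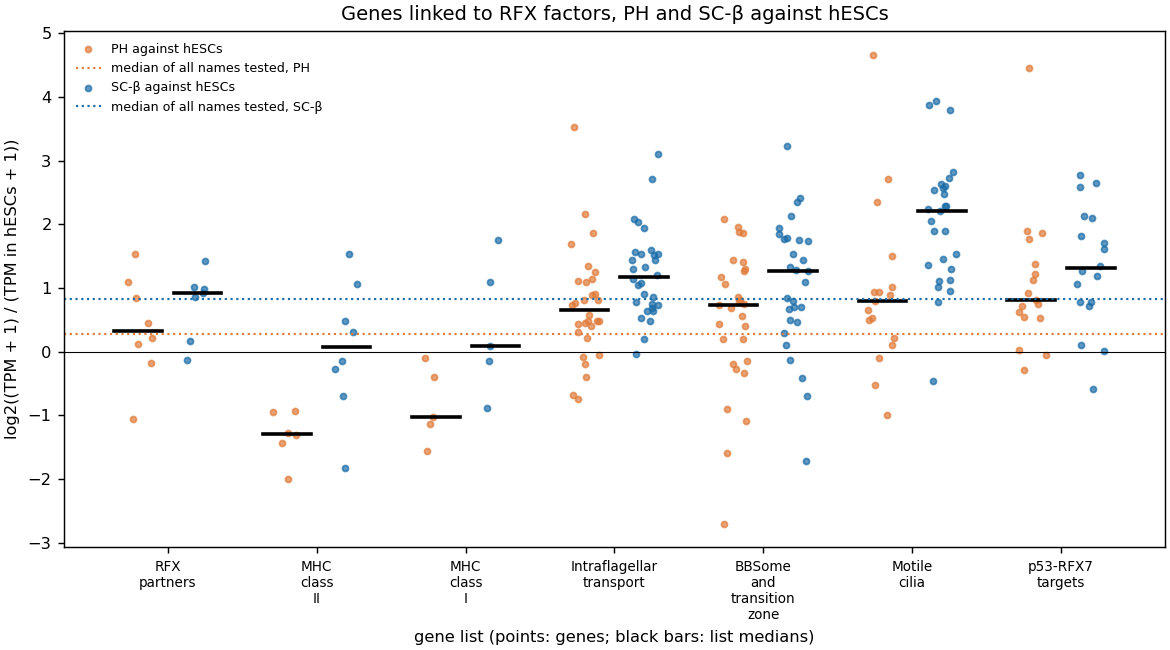
Log2 ratio of TPM + 1 to hESCs (vertical axis) for the genes of 7 lists (horizontal axis) in PH and SC-β, with 1 point per gene at 1 TPM or more in either stage, black bars at list medians and dotted lines at the median of all names. Motile cilia genes in SC-β have the highest of the medians drawn, 2.21, many of them entering through SC-β alone, and MHC class II genes in PH the lowest, -1.29.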

How the data were processed

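Total RNA came from 12 of the 148 samples, 2 per stage. The labels name both rRNA removal with RiboMinus and a TruSeq Stranded mRNA kit, and which was used is not settled here. The authors aligned reads to hg38 with HISAT2 (2.2.0), computed TPM with StringTie (2.1.6) and deposited the mean TPM of each stage. The annotation is not given in the sources used here. The table holds 50451 entries under 49085 names, of which 231 have several entries, which were summed. Depth cannot be recovered from TPM.

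Log2 ratios used a pseudocount of 1 TPM, and 2-fold was counted among names at 1 TPM or more in either stage. With 1 mean per stage no test was run. Alternatives were a pseudocount of 0.1 TPM, median-ratio rescaling, totals without the 100 most abundant names, no filter, and the highest entry of a name. Stage sums under other scalings, and lists limited to genes already at 1 TPM in hESCs, were added after seeing the data. Named genes were the 6 RFX genes, RFXANK, RFXAP, CIITA, NFYA, NFYB, NFYC, RFX8, FOXJ1, CD74, the 3 highest and 3 lowest ratios per list in SC-β and PH where the role is known, and the 3 courses most like each RFX gene. The genes and lists were chosen with earlier results of these data known. A gene of the lists is not reported here and was left out of their counts and medians after the data were examined. Calculations were tested on simulated data. Python 3.11.15, numpy 2.4.6, pandas 2.3.3 and matplotlib 3.10.9 were used. The ChIP-seq, ATAC-seq, CUT&Tag and other samples are not used here.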

Additional observations from a re-analysis of the deposited data

How the results depend on the processing

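Of the 180 log2 ratios of the RFX genes under the alternatives that could move them (the smaller pseudocount and both other scalings), 163 stayed on the same side of 2-fold, 11 came to pass it and 6 no longer did, and no ratio past 2-fold changed its sign. With a pseudocount of 0.1 TPM, 1 RFX gene (RFX7) was at least 2-fold lower in PGT than in hESCs (0 as reported), 2 were higher in PP than in PGT (1 as reported), 4 were higher in SC-β than in hESCs (3 as reported, RFX1 being added), and 10 of the 18 genes of most similar course were again among the 3 most similar. After median-ratio rescaling, 0 RFX genes were at least 2-fold higher in DE than in hESCs (2 as reported), 1 was lower in PGT than in hESCs, 2 were higher in PP than in PGT, and 1 was higher in SC-β than in PP (2 as reported). Without the 100 most abundant names, 2 were higher in PP than in PGT, 1 in SC-β than in PP and 4 in PH than in hESCs (3 as reported, RFX1 being added). Under both other scalings 3 RFX genes were highest in SC-β (4 as reported), RFX1 then being highest in PH, as an alternative chosen after seeing the data. Among the lists, rescaling left 10 of 30 intraflagellar transport genes (18 as reported), 0 RFX partners (2), 1 MHC class II gene (2) and 1 MHC class I gene (2) at least 2-fold higher in SC-β. Totals without the 100 most abundant names gave 15 intraflagellar transport (9 as reported), 16 BBSome and transition zone (10), 13 motile cilia (5) and 11 p53-linked RFX7 target genes (7) higher in PH, 13 BBSome and transition zone (8) and 17 motile cilia genes (11) higher in PP, and 1 MHC class I gene (2) higher in SC-β. With a pseudocount of 0.1 TPM, 9 motile cilia genes were higher in PH and 4 RFX partners in SC-β. Among genes at 1 TPM or more in hESCs, also chosen after seeing the data, 5 motile cilia genes and 1 MHC class II gene were higher in PP, 2 motile cilia genes and 0 RFX partners in PH, and 8 motile cilia genes and 0 MHC class II genes in SC-β. Among all names, the share past 2-fold with no filter on low values ran from 0.939% lower in SC-β than in PP to 22.2% higher in SC-β than in hESCs, and with a pseudocount of 0.1 TPM 33.6% were higher in SC-β than in PP, 28.6% higher in PP than in hESCs and 17.3% lower in PGT than in DE. Each RFX gene has a single entry, so the choice between entries could not change its level, and the filter on low values does not enter a ratio. No paired analysis was possible because the table holds 1 mean per stage, and for the same reason no replicate could be left out. The depth behind low values, such as RFX4 in hESCs, is unknown.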
